A study of Rattus norvegicus with 372 samples.

Results

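Primary hepatocytes of male Wistar rats, kept in collagen sandwich, were exposed for 24 h to valproic acid at 400 µM or to WY14643 at 8 µM, and the present comparison sets these treatments against each other in the genes of lipid metabolism. The members are the 12 libraries of the whole transcriptome (WT) assay that carry these labels, 3 wells per drug in each of 2 batches, of 372 libraries in the whole series. The same 12 lysates were also run by the S1500+ targeted (ST) assay, which served as a check. The study tested a panel of chemicals at a low and a high concentration each, and both treatments compared here are the low ones. All treated wells and the vehicle wells held 0.5% DMSO in the same culture medium, and vehicle was measured in 3 wells of batch 1 and 6 wells of batch 2. Each batch used the hepatocytes of 1 rat and had its own library preparation and sequencing, so wells of a treatment repeat the measurement within 1 animal, and only the 2 batches stand for separate animals. A p-value from a batch therefore measures the spread between wells of 1 rat, and a gene was counted for a drug only where both batches gave the call. The concentrations differ between the drugs, so a difference below is one between these 2 exposures and not between the drugs at equal dose.

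Valproic acid sat on plate 4 and WY14643 on plate 5 in batch 1, with vehicle on plate 4 alone, and in batch 2 on plates 2 and 3, with 3 vehicle wells on each. Plate and drug cannot be told apart in batch 1, while in batch 2 each drug could also be set against vehicle of its own plate. Comparing vehicle on plate 2 with vehicle on plate 3 in batch 2, edgeR called 0 of 10191 genes at an adjusted p under 0.05, while 1423 (14.0%) had an unadjusted p under 0.05, and the smallest adjusted p was 0.0858. The WT libraries held between 4.23 and 8.27 times 1000000 reads, and the ST libraries between 0.984 and 2.05 times 1000000. All 10 hepatocyte markers were detected, and their sum was 24362 to 27942 CPM with vehicle, 27216 to 36111 with valproic acid and 34205 to 36457 with WY14643 in batch 1, and 29266 to 32631, 34711 to 36326 and 33938 to 34766 in batch 2, where CPM stands for counts per 1000000 reads of the library, scaled within each batch. The hepatocyte markers did not move together, and with WY14643 Ass1 fell by 2.70 and 3.36 and Cps1 by 0.81 and 0.92 on the log2 scale in batches 1 and 2, while Alb rose by 0.77 and 0.24 and Apoh by 0.58 and 0.82. The summed stellate cell markers (7 of 8 measured) were lower with either drug than with vehicle, at 291 to 295 CPM with valproic acid, 241 to 265 with WY14643 and 361 to 387 with vehicle in batch 1, and at 126 to 146, 119.5 to 139 and 241 to 310.0 in batch 2. Of the 3 stellate markers tested, Reln alone was lowered by a drug, by both drugs in both batches (-1.03 and -1.48 with valproic acid and -1.41 and -1.56 with WY14643), whereas Col1a2 was raised by valproic acid in batch 1 (0.70) and Col3a1 by both drugs in batch 2 (0.63 and 0.59). The summed biliary markers were 35.7 to 41.4 CPM with vehicle, 22.3 to 31.0 with valproic acid and 42.2 to 48.1 with WY14643 in batch 1, and 40.9 to 48.9, 30.3 to 38.6 and 48.4 to 51.3 in batch 2. Of the 3 biliary markers tested, Epcam was lowered by valproic acid in both batches (-0.70 and -0.41) and was lower than with WY14643 in both (-0.86 and -0.51), Sox9 was raised by WY14643 in both (1.04 and 1.27), and Spp1 was not called. Kupffer cell and leukocyte markers summed to 59.6 to 89.3, 91.7 to 114 and 96.5 to 108 CPM in these groups in batch 1, and to 57.3 to 76.2, 79.2 to 91.1 and 57.0 to 71.4 in batch 2. Of the 5 tested members of that list, valproic acid raised Cd14 (0.80) and lowered Cd163 (-1.03) in batch 2, and neither drug changed any of them in both batches. Endothelial markers stayed between 1.53 and 4.81 CPM, and the part of other cells in any result was not tested. In such bulk lysates, fewer cells of a type and less RNA per cell cannot be told apart.

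WY14643, also called pirinixic acid, is a synthetic ligand of PPARα, the nuclear receptor through which the liver senses fatty acids. PPARα pairs with the retinoid X receptor on repeats of the hexamer AGGTCA spaced by a single base, called DR1, and in rodent liver it is known for inducing fatty acid uptake, oxidation in mitochondria and peroxisomes, omega hydroxylation and ketone body synthesis. Valproic acid is a branched fatty acid used against epilepsy, which hepatocytes convert to its CoA ester and oxidize, and it is also known as an inhibitor of histone deacetylases and as a drug that can cause fatty liver.

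The promoters of the lipid genes were searched for the DR1 letters AGGTCANAGGTCA, on both strands, within 250 bases before and 50 after the start in RefSeq (rat assembly GRCr8). Of 164 lipid genes tested, 129 had a promoter in that table. The exact letters were in 0 of the 129 and in 0.0538% of all 33469 promoters, and with at most 1 mismatch they were in 4 of the 129 (3.10%) and in 0.439% of all. With at most 2 mismatches they were in 16 of the 129 (12.4%) and in 3.77% of all. The 129 are genes, each counted where any of its promoters matched, while the 33469 are single promoters. The shares thus differ in unit and are not a measure of enrichment. A match of letters is a description and not a binding site. Among the 16 genes with at most 2 mismatches were also Acacb and Etfa, which valproic acid was not called to raise in either batch. Acly was another, with -0.91 and -0.40 against vehicle on the log2 scale with valproic acid in batches 1 and 2. The 4 genes with at most 1 mismatch are shown by the 120 bases before their start, 5′ to 3′ on the strand of the gene, with the match in capitals. All 4 were raised by both drugs and more by WY14643. They are Fabp1 (chr4:104749220-104749339 on the plus strand), Acot4 (chr6:109399734-109399853 on the plus strand), Acot12 (chr2:24721839-24721958 on the plus strand) and Acadvl (chr10:55236706-55236825 on the minus strand).
Fabp1: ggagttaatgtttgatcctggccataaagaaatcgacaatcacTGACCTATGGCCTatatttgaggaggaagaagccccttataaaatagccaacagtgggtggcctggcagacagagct
Acot4: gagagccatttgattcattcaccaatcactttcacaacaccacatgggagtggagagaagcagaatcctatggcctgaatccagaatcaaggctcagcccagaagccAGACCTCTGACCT
Acot12: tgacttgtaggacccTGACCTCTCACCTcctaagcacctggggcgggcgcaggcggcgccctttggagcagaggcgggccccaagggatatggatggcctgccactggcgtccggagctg
Acadvl: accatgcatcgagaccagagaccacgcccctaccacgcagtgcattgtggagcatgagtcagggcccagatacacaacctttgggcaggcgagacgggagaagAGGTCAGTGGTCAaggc

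Lipid genes were taken from 14 lists by role, with 232 symbols in all, of which 197 had a WT probe and 164 reached the mean count of 10 needed for testing. Both drugs raised many genes of fatty acid oxidation, binding and storage, and WY14643 raised most of them further. Valproic acid raised 78 of the 164 lipid genes tested against vehicle in both batches (676 of all 10191 genes, 6.63%), and WY14643 raised 114 (1603 of all, 15.7%). Raised by both drugs in both batches were 75 lipid genes (45.7%), beside 530 of all genes (5.20%). WY14643 gave the higher level in both batches for 66 of the 75 (260 of all genes, 2.55%), valproic acid for 0 (4 of all genes, 0.0393%), and the other 9 were not called between the drugs in both batches. By the rule used here, 12 lipid genes belonged to WY14643, being raised by it, never called raised by valproic acid and higher with WY14643 in both batches (480 of all genes, 4.71%). The mirror image, a lipid gene belonging to valproic acid, held for Cyp4f4 alone (51 of all genes, 0.500%). The 2 drugs were compared with the same vehicle wells, so the count raised by both is not a measure of likeness between them.

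Set directly against each other, the drugs differed in 30.3% of all genes in batch 1 and in 38.3% in batch 2. In both batches 1101 genes (10.8%) were higher with WY14643 and 845 (8.29%) with valproic acid, whereas of the lipid genes 105 (64.0%) were higher with WY14643 and 5 (3.05%) with valproic acid. The median direct L2FC, valproic acid relative to WY14643, was -1.04 and -0.90 over the lipid genes in batches 1 and 2, beside 0.00 and 0.01 over all genes. Relative to vehicle, the lipid genes had a median L2FC of 0.58 and 0.85 with valproic acid and of 1.42 and 1.61 with WY14643, where the medians of all genes lay between -0.02 and 0.00. Among the 75 genes raised by both, the median L2FC against vehicle was 1.62 and 1.66 with valproic acid and 3.23 and 3.03 with WY14643, and the direct L2FC was below 0 in both batches for 70 of them. Whether the direct L2FC differed between batches was tested as an interaction in edgeR, which called 13 of all genes (0.128%) and 0 of the 164 lipid genes, 20 of which had an unadjusted p under 0.05.

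**Figure D1:**
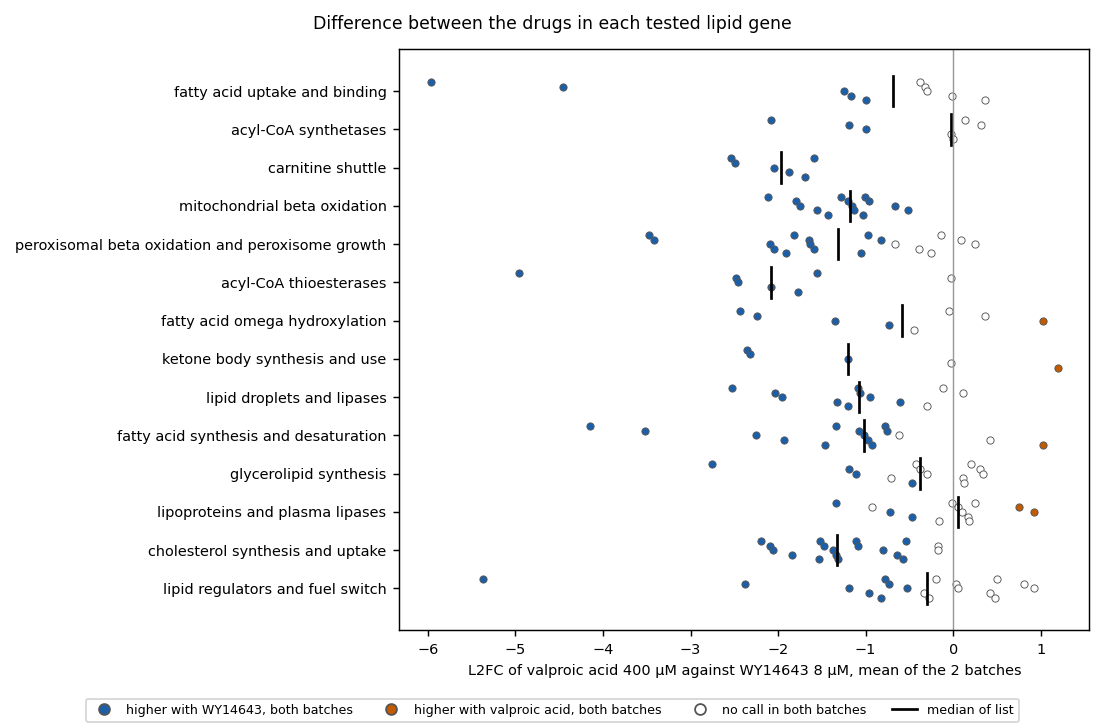
Each point is a lipid gene tested in the WT assay, placed by the mean over the 2 batches of its L2FC for valproic acid 400 µM against WY14643 8 µM (horizontal axis), in rows by list, with the list median as a vertical bar. Filled points were called in both batches, and most lie to the left of 0, on the side of WY14643 (105 genes, against 5 on the side of valproic acid).

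Fatty acids enter hepatocytes with the help of transport proteins and are carried in the cytosol by fatty acid binding proteins. Fabp1, the main binding protein of liver, was measured at 42.9, 59.7 and 36.3 CPM in the vehicle wells of batch 1, 913, 987 and 778 with valproic acid and 19439, 19006 and 16299 with WY14643, and in batch 2 17.7 to 25.1 (median 22.3) with vehicle, 419, 366 and 389 with valproic acid and 8739, 9786 and 9278 with WY14643. No wells of the 3 groups overlapped in either batch, and valproic acid lay between vehicle and WY14643. Its L2FC against vehicle was 4.27 and 4.16 with valproic acid and 8.63 and 8.73 with WY14643 in batches 1 and 2, and the direct L2FC was -4.35 ± 0.23 (adjusted p = 1.33e-25) in batch 1 and -4.57 ± 0.26 (adjusted p = 7.38e-25) in batch 2 by edgeR. Slc27a2, a fatty acid transporter that also activates its substrate, had a direct L2FC of -1.27 ± 0.17 in batch 1 and -1.06 ± 0.17 in batch 2 and was raised by both drugs, by 2.14 and 2.51 with valproic acid and by 3.42 and 3.56 with WY14643. Vldlr, the very low density lipoprotein receptor, was raised by WY14643 (1.77 and 1.60), while its L2FC with valproic acid was 0.57 and 0.31, called in batch 1 but not in batch 2 (adjusted p by edgeR 0.0033 and 0.0995), and it differed between the drugs by -1.21 ± 0.14 in batch 1 and -1.30 ± 0.16 in batch 2. Fabp7 was raised by both, and its direct L2FC was -1.34 ± 0.20 in batch 1 and -0.64 ± 0.19 in batch 2, a call that was lost without replicate 2 or replicate 3 of valproic acid in batch 2 (mean direct L2FC -0.92 and -0.92). In all, 3 of the 10 genes of this list were raised by both drugs, all 3 of them further by WY14643.

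Cd36, the scavenger receptor that takes up long chain fatty acids, carries this symbol in the ST assay alone. There it had an L2FC against vehicle of 3.91 and 4.45 with valproic acid and of 6.997 and 7.80 with WY14643, and a direct L2FC of -3.08 ± 0.24 in batch 1 (edgeR adjusted p = 4.53e-18) and -3.35 ± 0.26 in batch 2 (adjusted p = 1.14e-18). The ST probe bears the same probe number as the WT probe named RGD1565355, which was measured at 12.3, 12.6 and 19.2 CPM in the vehicle wells of batch 1, 239.6, 171 and 185 with valproic acid and 1981, 2286 and 2115 with WY14643, and in batch 2 5.77 to 11.1 (median 8.36) with vehicle, 247, 248.89 and 167 with valproic acid and 2699, 2926 and 2450.1 with WY14643. These wells did not overlap between groups either, and the direct L2FC of RGD1565355 was -3.42 ± 0.27 in batch 1 and -3.61 ± 0.30 in batch 2.

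Once inside the cell, a fatty acid is joined to CoA by a synthetase. Acsl1, the long chain synthetase of liver, was found at 132, 127 and 122 CPM in the vehicle wells of batch 1, 1389, 2559.5 and 1920.0 with valproic acid and 8383, 6214 and 7927 with WY14643, and in batch 2 129 to 155 (median 141) with vehicle, 1331, 1753 and 1834 with valproic acid and 8436, 6972 and 7709 with WY14643. The 3 groups kept apart in both batches, with a direct L2FC of -1.94 ± 0.19 (adjusted p = 2.16e-13) in batch 1 and -2.23 ± 0.17 (adjusted p = 4.95e-19) in batch 2 by edgeR. Of the 7 synthetases tested, Acsl1, Acsm2 and Acsm5 were raised by both drugs, and Acsl1 alone was also higher with WY14643 in both batches. Acsm2 and Acsm5, medium chain synthetases, did not pass the test between the drugs and are described with the genes of that kind below. Acsl4 and Acss2 were higher with WY14643 than with valproic acid, by -0.90 and -1.09 and by -1.43 and -0.95 in direct L2FC, and neither was raised against vehicle in both batches by either drug. The call of Acss2 was lost without replicate 3 of valproic acid or replicate 2 of WY14643 in batch 2 (mean direct L2FC -1.15 and -1.09).

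The carnitine shuttle moves activated fatty acids into mitochondria, and all 6 of its tested genes were raised by both drugs and further by WY14643 in both batches. Cpt1a, the liver form of the enzyme that forms acylcarnitine at the outer membrane, stood at 7.33, 6.55 and 3.52 CPM in the vehicle wells of batch 1, 33.6, 18.6 and 20.8 with valproic acid and 94.4, 119.7 and 90.4 with WY14643, and in batch 2 3.26 to 4.82 (median 4.17) with vehicle, 23.3, 18.7 and 18.5 with valproic acid and 48.1, 72.9 and 76.1 with WY14643. Cpt1b, the muscle form, was measured at 4.88, 3.97 and 3.52 CPM in the vehicle wells of batch 1, 83.8, 126 and 93.4 with valproic acid and 653, 598 and 569 with WY14643, and in batch 2 1.18 to 3.71 (median 3.04) with vehicle, 73.5, 86.4 and 101 with valproic acid and 416, 474 and 486 with WY14643. For neither gene did any well of valproic acid reach a well of WY14643 or fall to the level of vehicle. The direct L2FC of Cpt1a was -2.05 ± 0.25 (adjusted p = 5.54e-10) in batch 1 and -1.70 ± 0.23 (adjusted p = 1.23e-08) in batch 2, and that of Cpt1b -2.59 ± 0.18 (adjusted p = 5.42e-20) in batch 1 and -2.40 ± 0.22 (adjusted p = 7.39e-15) in batch 2, both by edgeR. The other members, Cpt2 and the acyltransferases Crat and Crot with the carnitine importer Slc22a5, had direct L2FC of -1.72 and -1.45, -1.86 and -1.51, -1.98 and -2.12 and -2.42 and -2.65 in batches 1 and 2. For Slc22a5 the count rests on the sum of 2 probes. By itself, 1 of them was not called raised by valproic acid in batch 2 (0.68, adjusted p by edgeR 0.0642). The list median was 1.996 and 1.93 with valproic acid and 4.07 and 3.80 with WY14643 against vehicle.

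Mitochondrial beta oxidation shortens the acyl chain in repeated rounds of dehydrogenation, hydration and cleavage. All 14 tested genes were higher with WY14643 than with valproic acid in both batches, and 13 of them were raised by both drugs, the exception being Etfa. For Acad10 the difference between the drugs depended on the probe, since 1 of its 2 WT probes had a direct L2FC of -0.92 and -0.97 and the other of -0.44 and -0.14 (adjusted p by edgeR 0.0922 and 0.481), while both probes were raised by both drugs. Acaa2, the thiolase that releases acetyl-CoA, was found at 205, 205 and 225 CPM in the vehicle wells of batch 1, 2071, 1902 and 2370.5 with valproic acid and 8229.7, 8784 and 9343 with WY14643, and in batch 2 155 to 188 (median 171) with vehicle, 2051, 1592 and 1489 with valproic acid and 7696, 7891 and 7503 with WY14643. Its direct L2FC was -2.05 ± 0.13 (adjusted p = 6.83e-21) in batch 1 and -2.17 ± 0.21 (adjusted p = 8.78e-14) in batch 2, and the groups did not overlap. Among the enzymes for unsaturated chains, Decr1 had a direct L2FC of -1.82 and -1.69 and Eci1 of -1.17 and -0.90, after rises of 2.98 and 2.90 and of 3.29 and 3.01 with valproic acid. The dehydrogenases Acadvl, Acadl and Acadm, for very long, long and medium chains, differed by -1.17 and -0.84, -1.48 and -1.07 and -1.68 and -1.45, and the trifunctional protein genes Hadha and Hadhb by -1.58 and -1.28 and -1.31 and -0.96. Hadh and Etfdh differed by -1.48 and -0.92 and by -1.74 and -1.86, and Echs1, Etfb and Acad10 by -0.63 and -0.40, -1.06 and -0.86 and -0.70 and -0.63. The median direct L2FC of the list was -1.39 and -0.998.

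Peroxisomes take the very long and branched chains and shorten them by their own set of beta oxidation enzymes. Ehhadh, the bifunctional enzyme of hydration and dehydrogenation there, was near the limit of detection with vehicle, at 2.91, 1.90 and 0.799 CPM in the vehicle wells of batch 1, 314, 426 and 383 with valproic acid and 3329, 2981 and 3439.5 with WY14643, and in batch 2 0.727 to 2.52 (median 1.63) with vehicle, 146, 184 and 182 with valproic acid and 2485, 2354 and 2417 with WY14643. It rose by 7.56 and 6.71 on the log2 scale with valproic acid and by 10.68 and 10.53 with WY14643, and the direct L2FC was -3.12 ± 0.18 (adjusted p = 2.31e-23) in batch 1 and -3.82 ± 0.22 (adjusted p = 2.45e-24) in batch 2 by edgeR. Valproic acid wells lay above all vehicle wells and below all WY14643 wells. Pex11a, which acts in the division of peroxisomes, was measured at 1.98, 1.38 and 1.28 CPM in the vehicle wells of batch 1, 10.6, 17.9 and 13.2 with valproic acid and 67.7, 50.4 and 62.3 with WY14643, and in batch 2 1.92 to 3.40 (median 2.58) with vehicle, 18.5, 22.6 and 24.8 with valproic acid and 94.2, 85.4 and 78.3 with WY14643, again without overlap. Of the 18 genes tested, 14 were raised by both drugs and 11 of these were higher with WY14643, among them Cat, catalase (-1.80 and -1.85), Abcd3, an acyl-CoA importer (-2.03 and -2.15), Ech1 (-1.76 and -1.53), Phyh, the alpha hydroxylase of branched chains (-1.22 and -0.87), Mlycd, malonyl-CoA decarboxylase (-1.75 and -1.42) and Nudt7 (-1.93 and -1.89). The remaining 3 of the 14 were Acox2, Scp2 and Pecr. The value of Eci2 depended on the probe: 1 of its 2 WT probes had a direct L2FC of -2.35 and -2.53 and the other of 0.03 and 0.35. The latter bears the probe number that the ST assay assigns to Eci3. Acaa1a, peroxisomal thiolase, differed by -1.02 and -0.61 in WT and by -3.10 and -2.22 in ST.

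Acyl-CoA thioesterases split the CoA ester again, and 6 of the 7 tested were raised by both drugs and further by WY14643. Acot1, the cytosolic long chain form, had at most 1 read in any vehicle well and stood at 0, 0.172 and 0 CPM in the vehicle wells of batch 1, 39.5, 40.2 and 35.6 with valproic acid and 857, 778 and 885 with WY14643, and in batch 2 0 to 0.173 (median 0) with vehicle, 11.7, 19.9 and 13.7 with valproic acid and 738, 659 and 623 with WY14643. With 1 vehicle read in all per batch, the ratio of its pooled read rate to vehicle was 797 and 620.4 with valproic acid in batches 1 and 2, the exact 95% counting intervals starting at 143 and 111. With WY14643 it was 17158 and 27456, with intervals that start at 3079 and 4927, and these intervals cover counting error only. Between the drugs, where every well held reads, the direct L2FC was -4.45 ± 0.21 in batch 1 and -5.47 ± 0.20 in batch 2. Acot4 (-2.55 and -2.37), Acot7 (-2.36 and -2.59), Acot3 (-1.97 and -2.18), Acot12 (-1.73 and -1.83) and Acot2 (-1.71 and -1.39) differed in the same direction in direct L2FC. For Acot7, 1 of its 2 WT probes was not called raised by valproic acid in batch 1 (0.94, adjusted p by edgeR 0.138). Acot13 was not raised in both batches by either drug and not called between them. These genes have close paralogs, so reads of a near-identical copy could be counted with them.

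Omega hydroxylases oxidize the far end of the chain, and the Cyp4a genes among them are classic markers of PPARα activation in rat liver. Cyp4a1 was found at 1.05, 1.55 and 2.24 CPM in the vehicle wells of batch 1, 676, 657 and 703 with valproic acid and 2986, 2856 and 3156 with WY14643, and in batch 2 0.850 to 2.37 (median 1.69) with vehicle, 417, 513 and 499 with valproic acid and 2354, 2517 and 2353 with WY14643. From this low level it rose by 8.75 and 8.14 on the log2 scale with valproic acid and by 10.89 and 10.48 with WY14643. The direct L2FC was -2.14 ± 0.17 (adjusted p = 1.57e-17) in batch 1 and -2.34 ± 0.30 (adjusted p = 1.40e-09) in batch 2, and no wells overlapped. Cyp4a2, summed over 3 probes, differed by -2.41 and -2.46 between the drugs and by between -3.05 and -2.19 when each probe was tested by itself. Cyp2j4 (-1.52 and -1.17) and the fatty aldehyde dehydrogenase Aldh3a2 (-0.93 and -0.52) completed the 4 genes of 8 that were raised by both and higher with WY14643. Cyp4f4 went the other way and is described with the genes higher with valproic acid.

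Ketone bodies are made from the acetyl-CoA of beta oxidation, and 3 of the 5 genes tested for their synthesis and use were raised by both drugs and higher with WY14643. Acat1 (-2.33 and -2.32) and Bdh1, 3-hydroxybutyrate dehydrogenase (-1.36 and -1.04), were among them. Oxct1, which uses ketone bodies in other tissues, had an L2FC against vehicle of -1.44 and -1.04 with valproic acid and -1.14 and -1.30 with WY14643, of which only the last was called (adjusted p by edgeR 0.0453), and it was not called between the drugs.

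**Figure D2:**
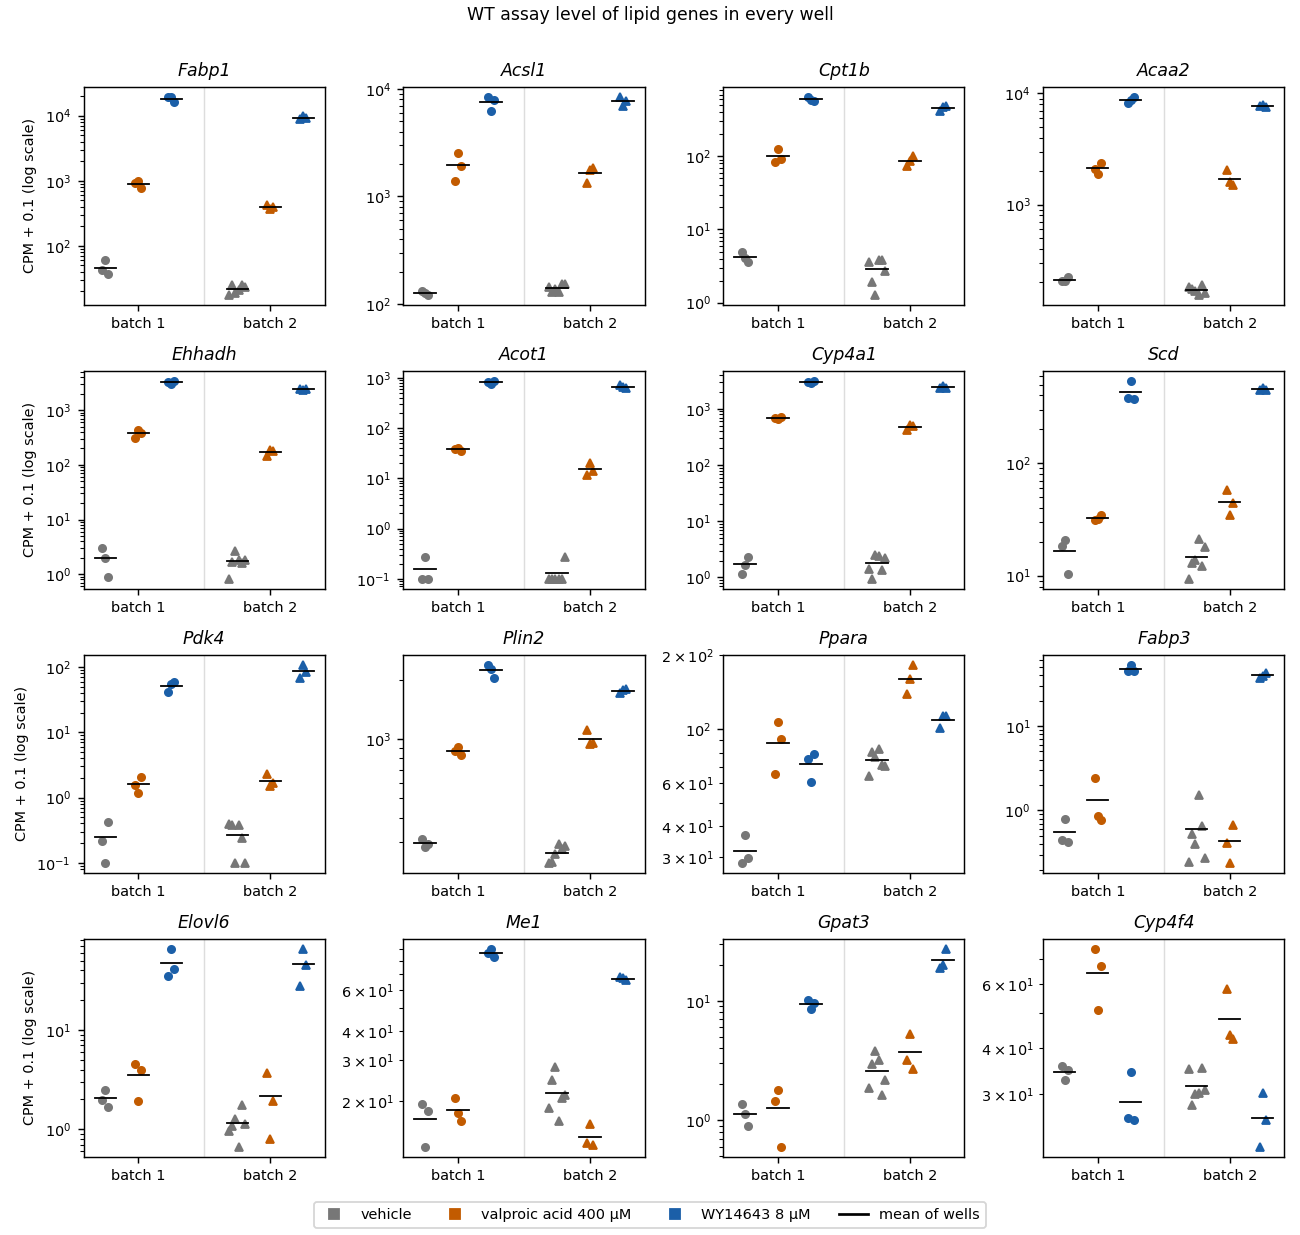
Every well of the WT assay is a point for 16 lipid genes, with CPM + 0.1 on a log axis, by batch (circles batch 1, triangles batch 2) and group (grey vehicle, orange valproic acid, blue WY14643), and bars mark the means. In Fabp1, Acsl1 and Cyp4a1 the groups form 3 separate steps, in Fabp3, Elovl6 and Me1 WY14643 stands above all other wells and was the one drug to raise the gene against vehicle, and in Cyp4f4 valproic acid is the highest group.

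Fatty acids that are not burnt are kept as triglyceride in droplets, and 8 of 12 droplet and lipase genes were raised by both drugs, all 8 further by WY14643. Plin2, which coats the droplet, stood at 310.0, 284 and 295 CPM in the vehicle wells of batch 1, 868, 913 and 826 with valproic acid and 2377, 2269 and 2040.0 with WY14643, and in batch 2 236 to 292 (median 268) with vehicle, 1106, 946 and 958 with valproic acid and 1714, 1771 and 1794 with WY14643. No wells overlapped between the groups, and the direct L2FC was -1.36 ± 0.12 (adjusted p = 4.66e-15) in batch 1 and -0.81 ± 0.11 (adjusted p = 8.50e-09) in batch 2, nearer to 0 than that of Fabp1. Hilpda, an inhibitor of the main triglyceride lipase, differed by -2.77 ± 0.13 in batch 1 and -2.28 ± 0.14 in batch 2, and Pnpla2, that lipase itself, by -2.22 ± 0.23 in batch 1 and -1.70 ± 0.24 in batch 2. Mgll (-2.08 and -1.996), which splits the last ester, and G0s2 (-1.28 and -1.13), also an inhibitor of Pnpla2, were raised by both drugs too, as were Lipa, the lysosomal lipase (-1.23 and -0.90), and Hsd17b13 (-1.32 and -1.33). Fitm2 differed by -1.05 and -0.85, a call that was lost without replicate 1 of valproic acid in batch 1 (mean direct L2FC -0.81). Cidec, a fusion protein of droplets, was measured at 63.4, 62.8 and 50.2 CPM in the vehicle wells of batch 1, 66.8, 90.4 and 68.6 with valproic acid and 74.0, 73.6 and 66.9 with WY14643, and in batch 2 52.8 to 86.2 (median 70.3) with vehicle, 61.4, 87.1 and 95.1 with valproic acid and 75.7, 68.7 and 73.7 with WY14643. Its groups overlapped, and its direct L2FC was 0.07 and 0.16, with 95% intervals of -0.25 to 0.40 and -0.14 to 0.46.

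Among regulators, Pdk4, the kinase that turns off pyruvate dehydrogenase so that fat is burnt in place of glucose, had at most 2 reads in any vehicle well. Its levels were 0.116, 0 and 0.320 CPM in the vehicle wells of batch 1, 1.46, 1.07 and 1.998 with valproic acid and 40.7, 55.9 and 58.0 with WY14643, and in batch 2 0 to 0.291 (median 0.210) with vehicle, 2.18, 1.40 and 1.57 with valproic acid and 67.7, 108 and 84.7 with WY14643. The ratio of its pooled read rate to vehicle was 10.3 (exact 95% counting interval 3.20 to 52.5) and 9.91 (4.34 to 26.4) with valproic acid in batches 1 and 2. With WY14643 it was 362 (124 to 1762) and 506 (245 to 1260.4). The direct L2FC was -5.09 ± 0.31 (adjusted p = 2.98e-21) in batch 1 and -5.66 ± 0.39 (adjusted p = 2.27e-20) in batch 2 by edgeR. Ucp2, a mitochondrial carrier, differed by -2.51 ± 0.20 in batch 1 and -2.26 ± 0.22 in batch 2, the kinase Pdk1 by -1.29 and -1.08, the nuclear receptor Nr1i3 (CAR) by -0.83 and -1.09 and the transcription factor Creb3l3 by -0.93 and -0.62, all raised by both drugs. Fgf21, a hormone of fasting, had levels of 43.3, 57.1 and 31.0 CPM in the vehicle wells of batch 1, 78.2, 100.3 and 79.1 with valproic acid and 177, 177 and 132 with WY14643, and in batch 2 26.9 to 52.0 (median 38.1) with vehicle, 57.2, 54.2 and 55.6 with valproic acid and 73.6, 88.5 and 82.1 with WY14643. Its direct L2FC was -0.92 ± 0.22 (adjusted p = 9.59e-04) in batch 1 and -0.55 ± 0.19 (adjusted p = 0.0173) in batch 2, and the call was lost without replicate 2 or 3 of valproic acid or replicate 2 of WY14643 in batch 2 (mean direct L2FC -0.72, -0.73 and -0.70). Of 18 regulators, 8 were raised by both drugs, and Ppara and Srebf1 were the 2 of these with no call between the drugs in both batches. Triglyceride and phospholipid synthesis had 3 of 13 genes raised by both drugs, Agpat3, Dgat2 and Gpam, and only Agpat3, an acyltransferase, was also called higher with WY14643 in both batches (-1.44 and -0.94). Agpat2 of the same family was raised by WY14643 alone in both batches (1.34 and 1.52), had 0.14 and 0.49 with valproic acid (adjusted p = 0.666 and 0.00871), and differed by -1.20 ± 0.16 in batch 1 and -1.03 ± 0.17 in batch 2 between the drugs. Mttp, which loads lipid onto lipoproteins, was the sole raised-by-both gene of the 13 lipoprotein genes, with a direct L2FC of -1.33 ± 0.11 in batch 1 and -1.34 ± 0.10 in batch 2.

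**Figure D3:**
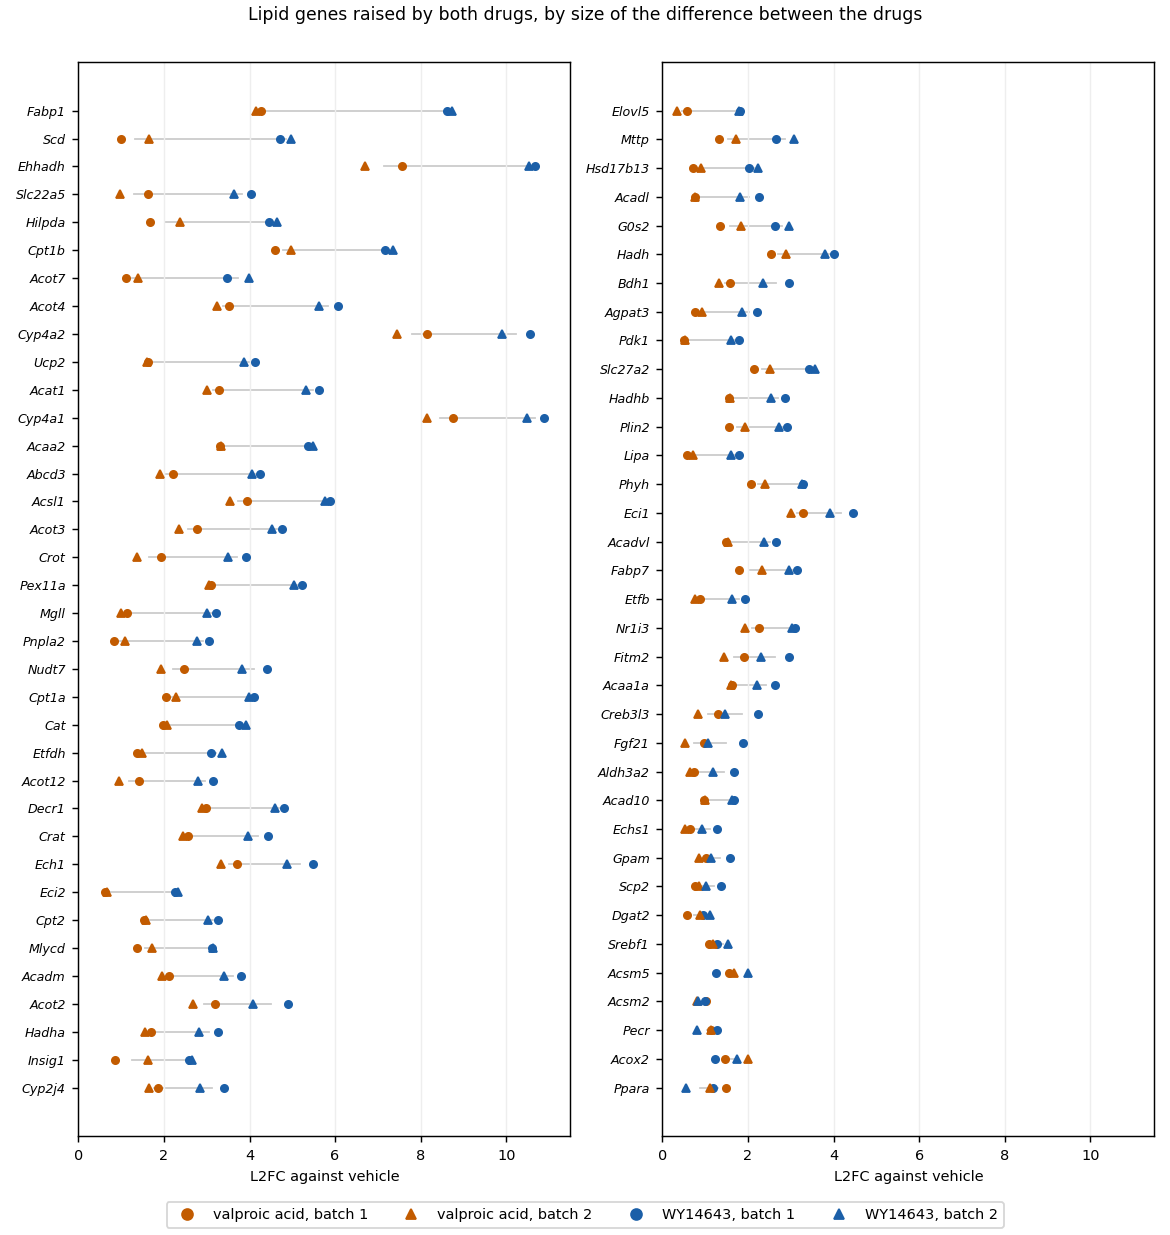
L2FC against vehicle of 71 of the 75 lipid genes raised by both drugs (Acot1 and Pdk4, whose vehicle wells held at most 2 reads, are among those not drawn), with valproic acid in orange and WY14643 in blue, circles for batch 1 and triangles for batch 2, ordered by the size of the difference between the drugs. Fabp1 and Scd are among the genes with the widest gap, and the points of the 2 drugs meet in genes such as Acsm2, Acox2 and Ppara.

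The 9 genes raised by both drugs without a call between them in both batches had median L2FC against vehicle of 1.09 and 1.11 with valproic acid and of 1.26 and 1.12 with WY14643. Ppara, the receptor itself, was found at 28.3, 36.6 and 29.6 CPM in the vehicle wells of batch 1, 65.6, 107 and 90.6 with valproic acid and 75.1, 60.5 and 79.1 with WY14643, and in batch 2 64.4 to 82.7 (median 73.9) with vehicle, 138, 159 and 183 with valproic acid and 101, 112 and 112 with WY14643. Its valproic acid and WY14643 wells overlapped in batch 1, while in batch 2 all 3 valproic acid wells were the higher, and the direct L2FC was 0.29 (95% interval -0.22 to 0.80) in batch 1 and 0.56 (0.06 to 1.06) in batch 2, with adjusted p = 0.405 and 0.0689 by edgeR. Acsm2 had a direct L2FC of 0.02 (95% interval -0.35 to 0.38) in batch 1 and -0.01 (-0.33 to 0.30) in batch 2, the estimates nearest to 0 among the 9. For Acsm5 the direct L2FC was 0.29 (95% interval -0.39 to 0.97) in batch 1 and -0.33 (-0.98 to 0.31) in batch 2, and for Acox2, the oxidase of bile acid side chains, 0.23 (95% interval -0.23 to 0.69) in batch 1 and 0.28 (-0.13 to 0.68) in batch 2. Gpam, the first enzyme of triglyceride synthesis, was called lower with valproic acid in batch 1 alone, at -0.57 (95% interval -0.93 to -0.20) in batch 1 and -0.27 (-0.68 to 0.13) in batch 2. The same held for Scp2, a sterol carrier, at -0.60 (95% interval -1.03 to -0.18) in batch 1 and -0.18 (-0.51 to 0.15) in batch 2, while Srebf1, the regulator of fatty acid synthesis, was called in batch 2 alone, at -0.20 (95% interval -0.49 to 0.10) in batch 1 and -0.35 (-0.62 to -0.07) in batch 2. Dgat2, the last enzyme of triglyceride synthesis, differed by -0.37 (95% interval -0.76 to 0.03) in batch 1 and -0.24 (-0.60 to 0.13) in batch 2, and Pecr, a peroxisomal reductase, by -0.14 (95% interval -0.63 to 0.35) in batch 1 and 0.33 (-0.03 to 0.68) in batch 2. These intervals still admit differences of up to about the size of several of the called ones, so the missing call does not show that the drugs acted alike on these genes.

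Of the 12 genes that belonged to WY14643, 5 were of fatty acid synthesis (Acaca, Acacb, Elovl1, Elovl6 and Me1), and the other 7 were of 6 further lists. With valproic acid, the L2FC of the 12 against vehicle ran from -0.23 to 1.54 in batch 1 and from -0.63 to 0.92 in batch 2. A missing call from 3 wells per batch does not show that valproic acid left these genes unchanged. Elovl6, which elongates palmitate, stood at 1.86, 2.41 and 1.60 CPM in the vehicle wells of batch 1, 4.49, 1.83 and 3.83 with valproic acid and 35.0, 65.3 and 41.1 with WY14643, and in batch 2 0.567 to 1.65 (median 1.02) with vehicle, 3.58, 0.702 and 1.85 with valproic acid and 27.6, 65.3 and 45.4 with WY14643. Its valproic acid wells overlapped with vehicle in batch 1 and in batch 2, and all WY14643 wells were above them. The L2FC against vehicle was 0.81 and 0.92 with valproic acid (adjusted p = 0.293 and 0.212) and 4.60 and 5.43 with WY14643, and the direct L2FC -3.79 ± 0.38 in batch 1 and -4.51 ± 0.45 in batch 2. Me1, malic enzyme, which supplies NADPH, was measured at 19.3, 12.6 and 18.1 CPM in the vehicle wells of batch 1, 20.5, 17.7 and 16.3 with valproic acid and 86.0, 89.9 and 83.0 with WY14643, and in batch 2 16.3 to 27.98 (median 20.8) with vehicle, 13.1, 15.7 and 12.8 with valproic acid and 67.7, 67.3 and 65.8 with WY14643. Its valproic acid wells overlapped with vehicle in batch 1 and lay below the lowest vehicle well in batch 2 (L2FC -0.63 ± 0.13, edgeR adjusted p = 1.19e-04), and the direct L2FC was -2.24 ± 0.16 in batch 1 and -2.27 ± 0.15 in batch 2. The rise of Me1 with WY14643 itself differed between the batches by the interaction test, at 2.36 and 1.64.

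Fabp3, the binding protein of heart and muscle, was near the floor without WY14643, at 0.349, 0.690 and 0.320 CPM in the vehicle wells of batch 1, 2.31, 0.764 and 0.666 with valproic acid and 44.2, 52.7 and 45.0 with WY14643, and in batch 2 0.145 to 1.42 (median 0.360) with vehicle, 0.311, 0.140 and 0.569 with valproic acid and 36.6, 39.4 and 42.7 with WY14643. Its valproic acid wells of batch 2 held 1 to 4 reads each, and its direct L2FC was -5.15 ± 0.38 in batch 1 and -6.79 ± 0.55 in batch 2. Gpat3, an acyltransferase of triglyceride synthesis, differed by -2.93 ± 0.43 in batch 1 and -2.58 ± 0.26 in batch 2, with L2FC of 0.17 and 0.54 against vehicle for valproic acid (adjusted p = 0.894 and 0.137) and 3.10 and 3.12 for WY14643. The acetyl-CoA carboxylases, which make malonyl-CoA, differed by -0.65 and -1.20 (Acaca) and by -1.46 and -1.46 (Acacb), and Elovl1 by -1.07 and -0.97. Etfa, which passes electrons from beta oxidation on, had 0.31 and 0.36 with valproic acid against vehicle, with an adjusted p of 0.054 in batch 2, and 1.58 and 1.40 with WY14643. Pex11g (-1.03 and -0.93), Abhd5, the activator of Pnpla2 (-0.68 and -0.52), Apoa2 (-0.82 and -0.62) and Scarb1, the HDL receptor (-0.47 and -0.47), had the smallest direct L2FC of this group together with Acaca and Elovl1. Apoa2 and Scarb1 were not called by the ST assay in both batches. The call of Apoa2 was also lost without replicate 2 of valproic acid or replicate 3 of WY14643 in batch 1 (mean direct L2FC -0.67 and -0.64), and without replicate 2 or 3 of either drug in batch 2 (-0.66, -0.64, -0.66 and -0.74). That of Scarb1 was lost without replicate 3 of valproic acid, or replicate 1 or 2 of WY14643, in batch 1 (-0.44, -0.41 and -0.47) and without replicate 3 of either drug in batch 2 (-0.44 and -0.44).

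The remaining genes of fatty acid synthesis included both patterns. Scd, the desaturase that makes oleate, was raised by both drugs and stood at 18.3, 20.7 and 10.2 CPM in the vehicle wells of batch 1, 31.4, 31.9 and 34.6 with valproic acid and 377, 539.6 and 374 with WY14643, and in batch 2 9.30 to 21.0 (median 13.3) with vehicle, 57.5, 34.7 and 44.3 with valproic acid and 452, 469 and 444 with WY14643. Its groups did not overlap, and its direct L2FC was -3.72 ± 0.23 in batch 1 and -3.32 ± 0.25 in batch 2. Elovl5, which elongates polyunsaturated chains, was also raised by both, with a direct L2FC of -1.25 and -1.43. Fasn, fatty acid synthase, had levels of 59.4, 70.9 and 59.5 CPM in the vehicle wells of batch 1, 40.9, 43.4 and 39.5 with valproic acid and 67.1, 59.5 and 62.5 with WY14643, and in batch 2 23.5 to 30.1 (median 25.04) with vehicle, 26.0, 38.1 and 30.6 with valproic acid and 59.5, 67.8 and 56.5 with WY14643. It was below vehicle with valproic acid in batch 1 (L2FC -0.62, adjusted p = 8.44e-05) and not called in batch 2 (0.29, adjusted p = 0.129), while WY14643 gave -0.01 and 1.25. The direct contrast was called in both batches, at -0.61 ± 0.12 in batch 1 and -0.96 ± 0.16 in batch 2. Over the 15 genes of the list, 12 were higher with WY14643 in both batches, 11 were raised by WY14643 and 2 by valproic acid.

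A lipid gene belonged to valproic acid in 1 case. Cyp4f4, an omega hydroxylase of the Cyp4f family, was measured at 35.8, 32.8 and 34.9 CPM in the vehicle wells of batch 1, 74.6, 50.9 and 67.1 with valproic acid and 25.8, 34.3 and 25.5 with WY14643, and in batch 2 28.04 to 35.2 (median 30.5) with vehicle, 58.0, 43.5 and 42.4 with valproic acid and 21.5, 30.1 and 25.5 with WY14643. All valproic acid wells were above all wells of vehicle and of WY14643, and those of WY14643 overlapped with vehicle in batch 1 and in batch 2. The L2FC against vehicle was 0.90 ± 0.20 (adjusted p = 5.27e-04) in batch 1 and 0.60 ± 0.16 (adjusted p = 0.00242) in batch 2 with valproic acid and -0.26 and -0.30 with WY14643 (adjusted p = 0.341 and 0.136), and the direct L2FC was 1.16 ± 0.21 (adjusted p = 7.51e-06) in batch 1 and 0.90 ± 0.19 (adjusted p = 1.29e-04) in batch 2. Without replicate 1 of valproic acid in batch 2, this gene no longer met the rule, and 0 lipid genes then belonged to valproic acid. Beside it, 4 lipid genes were higher with valproic acid than with WY14643 in both batches, but none of them was raised by valproic acid against vehicle. Fads3, of the desaturase family, was at 114, 116 and 113 CPM in the vehicle wells of batch 1, 62.8, 77.4 and 58.1 with valproic acid and 32.7, 32.5 and 31.3 with WY14643, and in batch 2 102 to 125 (median 107) with vehicle, 54.1, 61.9 and 64.2 with valproic acid and 31.6, 27.8 and 30.2 with WY14643, so that both drugs lowered it and WY14643 further, with a direct L2FC of 1.04 ± 0.16 in batch 1 and 1.01 ± 0.17 in batch 2. Apoa5, which promotes triglyceride clearance, was lowered by WY14643 (-0.98 and -1.48), and the drugs differed by 0.75 and 0.75. Bdh2 differed by 1.11 ± 0.39 in batch 1 and 1.29 ± 0.37 in batch 2, with 4.25, 9.47 and 3.66 CPM with valproic acid and 2.87, 2.16 and 3.13 with WY14643 in batch 1. Its call was lost without replicate 2 of either drug in batch 1 (mean direct L2FC 0.93 and 1.12), as was that of Apoa5 (0.67 and 0.71). Nr0b2 and Nr1h4, nuclear receptors of bile acid control, were raised by valproic acid in both batches (1.25 and 1.20 and 0.84 and 0.72) and by WY14643 in 1 batch each (1.38 and 0.06 and 0.11 and 0.50), without a call between the drugs in both batches.

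In cholesterol synthesis the effects against vehicle differed between the batches. Of the 18 genes tested, WY14643 raised 16 in batch 1 and 18 in batch 2, whereas valproic acid raised 1 (Insig1) and lowered 1 (Idi1) in batch 1 and raised 18 in batch 2. Over all genes, 19.3% and 26.0% were called higher with WY14643 in batches 1 and 2, 8.44% and 12.8% higher with valproic acid, and 5.86% lower with valproic acid in batch 1. The median L2FC was -0.06 and 1.01 with valproic acid and 1.23 and 2.52 with WY14643 in batches 1 and 2. The interaction of drug and batch was called in 9 of the 18 for valproic acid (0.422% of all genes) and in 12 for WY14643 (1.62%), and in 0 for the direct contrast (2 at an unadjusted p under 0.05), by edgeR. Set against each other, 16 of the 18 were higher with WY14643 in each batch, beside 16.4% and 20.1% of all genes, and the median direct L2FC was -1.39 and -1.25. Idi1, isopentenyl diphosphate isomerase, was measured at 17.3, 22.6 and 16.8 CPM in the vehicle wells of batch 1, 12.02, 12.5 and 13.2 with valproic acid and 47.0, 57.7 and 58.9 with WY14643, and in batch 2 5.36 to 9.77 (median 6.95) with vehicle, 12.1, 13.6 and 13.2 with valproic acid and 60.7, 68.9 and 58.8 with WY14643. Valproic acid lay below vehicle in batch 1 and above it in batch 2, while the 2 sets of valproic acid wells were close, at 12.02, 12.5 and 13.2 and 12.1, 13.6 and 13.2 CPM, and the vehicle wells of batch 1 were the higher ones. The list did not follow Idi1 in its median level, which over the 18 genes was 23.7 and 24.4 CPM with vehicle in batches 1 and 2, 23.2 and 41.7 with valproic acid and 44.8 and 72.5 with WY14643, each batch being scaled by itself. The summed level of the 18 was 1566 and 1370 CPM with vehicle, 2173 and 3407 with valproic acid and 6059 and 6927 with WY14643. With vehicle this sum was the higher in batch 1, as Idi1 was, while with valproic acid it was the higher in batch 2. Fdps, farnesyl diphosphate synthase, had a direct L2FC of -2.13 ± 0.21 in batch 1 and -2.05 ± 0.23 in batch 2, and Hsd17b7, a sterol reductase, of -2.05 ± 0.19 in batch 1 and -2.07 ± 0.26 in batch 2. Insig1, which retains the sterol sensor in the endoplasmic reticulum, was the one member raised by both drugs in both batches, at 603, 689 and 676 CPM in the vehicle wells of batch 1, 1127, 1099 and 1321 with valproic acid and 3409.8, 4178 and 4202 with WY14643, and in batch 2 561 to 988 (median 655) with vehicle, 2716, 1990.0 and 1946 with valproic acid and 4293, 4685 and 4447 with WY14643. Its direct L2FC was -1.73 ± 0.12 in batch 1 and -1.01 ± 0.18 in batch 2. With the vehicle wells of its own plate alone in batch 2, valproic acid raised 17 of the 18 (11.8% of all genes) and WY14643 17 (25.4%). A further 22 of the 164 lipid genes were raised by WY14643 in both batches and higher than with valproic acid in both, but raised by valproic acid in 1 batch, a pattern of 1.30% of all genes, and 15 of the 22 were of the cholesterol list.

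**Figure D4:**
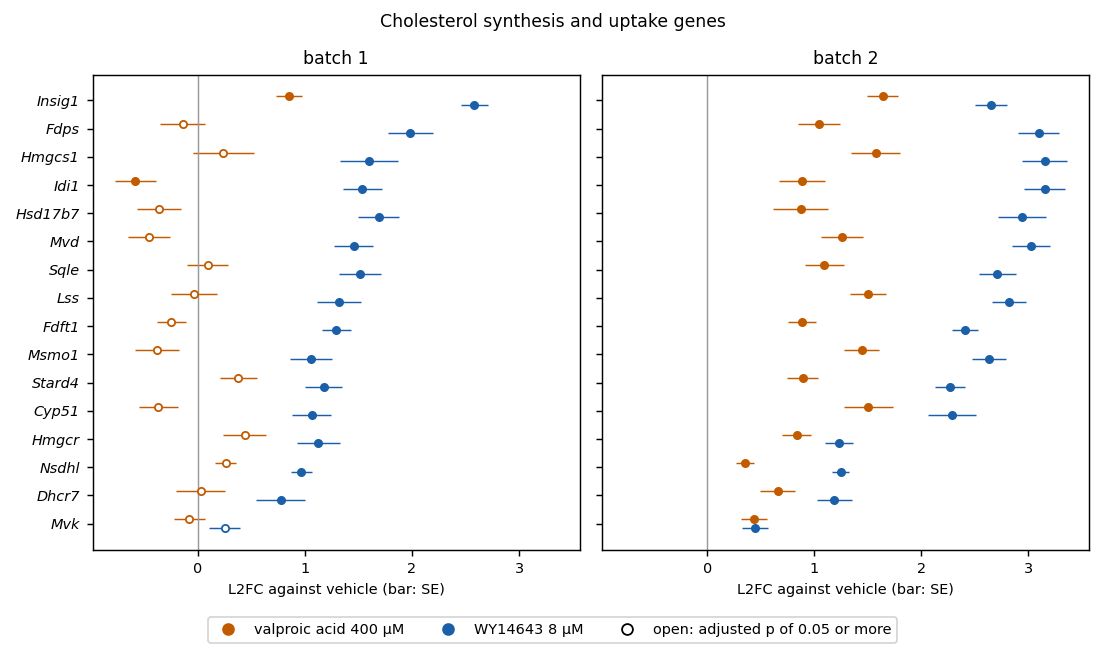
L2FC against vehicle with its SE of 16 of the 18 cholesterol genes in batch 1 (left) and batch 2 (right), valproic acid in orange and WY14643 in blue, open points having an adjusted p of 0.05 or more. WY14643 lies to the right of valproic acid in both panels, and the valproic acid points sit around 0 in batch 1 and above it in batch 2.

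In batch 2, the difference between the drugs could also be taken after each drug had been set against the 3 vehicle wells of its own plate, which leaves no shared control. There 70 lipid genes were raised by both drugs and higher with WY14643 (2.68% of all genes), beside 88 by the ordinary contrast of that batch alone (4.30%). Raised by both drugs and higher with valproic acid was 1 lipid gene so taken (0.108% of all genes), beside 0 by the ordinary contrast (0.196%). The sign of the direct L2FC was kept in all 94 named genes. The calls of Aldh3a2 (-0.18), Agpat3 (-0.48), Eci1 (-0.66), Fabp7 (-0.22), Fgf21 (-0.18), Fitm2 (-0.59), Acss2 (-0.61), Scarb1 (-0.09) and Srebf1 (-0.12) were lost, and so were those of Acot1 (-3.53), Krt23 (-6.45) and Chrna2 (-4.06), whose vehicle wells held almost no reads. Cidec was called there, higher with valproic acid (0.53). Abhd5 had -0.26, with an adjusted p of 0.219.

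The ST assay measured 94 of the lipid genes in separate libraries of the same lysates, so it checks the measurement and not the biology. The paper reports that some probes for shared genes differ in oligo sequence between the assays. How many of the 94 genes rest on equal probes was not examined. Between the drugs it called 29.5% of its 1760 genes in batch 1 and 39.0% in batch 2. Of the 73 lipid genes that WT called between the drugs in both batches and ST tested, all 73 had the same sign in ST, and the median absolute difference of their L2FC was 0.112. WT found 52 of the 94 raised by both drugs and ST 51 (9.83% of all ST genes), with 50 shared. For those raised by both and higher with WY14643 the counts were 47, 46 (6.25% of all ST genes) and 45. Cyp4f4 belonged to valproic acid in ST as well (0.852% of all ST genes did), with a direct L2FC of 1.06 and 1.16. Of 5 genes belonging to WY14643 in WT and 3 in ST (3.69% of all ST genes), 1 was shared.

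**Figure D5:**
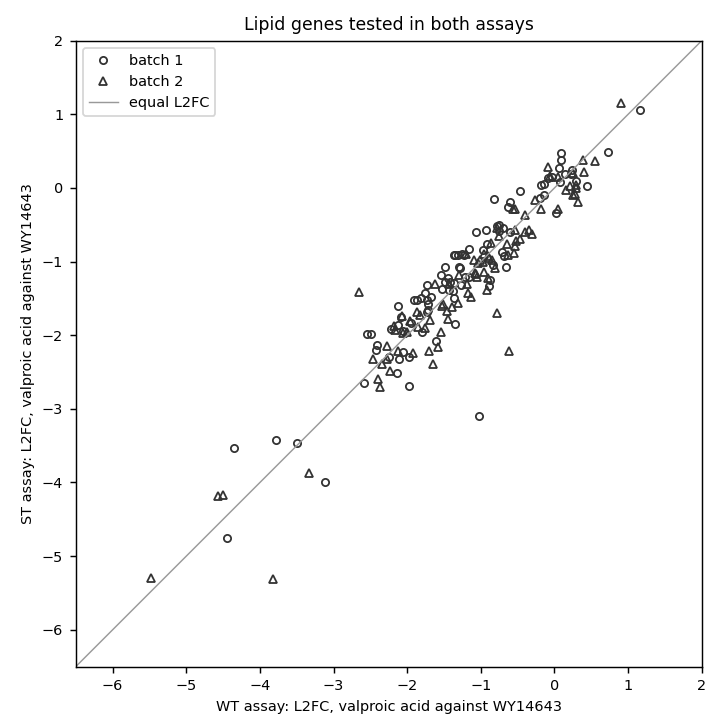
Direct L2FC of valproic acid 400 µM against WY14643 8 µM in the WT assay (horizontal) and the ST assay (vertical) for the 94 lipid genes tested in both, circles for batch 1 and triangles for batch 2, with the line of equal values. Most points lie along the line below 0, and Acaa1a (-1.02 and -0.61 in WT, -3.10 and -2.22 in ST) lies apart from it.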

How the data were processed

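TempO-Seq quantifies transcripts by pairs of detector oligos that are ligated on the target RNA in a cell lysate, amplified and sequenced. The authors deposited raw counts per probe and library, for a whole transcriptome (WT) and an S1500+ (ST) probe set. Per the submitters' processing notes, reads were aligned with STAR 2.5.3a against rn6. The counts were used as deposited: probes of 1 gene symbol were summed, and genes with a mean count of at least 10 were kept (10191 of 20946 symbols in WT, 1760 in ST). All table columns could be assigned to a measure (0 were left out), and each row of counts was tied to its library by the label.

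Each batch was fitted on its own by the quasi-likelihood test of edgeR 4.0.16 (R 4.3.3, limma 3.58.1), with TMM scaling and every treatment of the batch as a group, so that all wells share the estimate of spread. Contrasts were valproic acid against WY14643 (direct) and each drug against vehicle. The p-values were adjusted after Benjamini and Hochberg over all genes tested, two-sided, and a call needed an adjusted p under 0.05 with the same sign in both batches. L2FC are log2 fold changes, given ± SE, each from 3 wells per drug against 3 wells, or 6 vehicle wells in batch 2. A gene raised by both drugs was called higher than vehicle for each in both batches. A gene belonging to 1 drug was raised by it in both batches, raised by the other drug in neither, and higher than with the other drug in both. Interaction with batch was tested in 1 fit of both batches.

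Genes named by rule were up to 3 per lipid list with the largest mean direct L2FC in each direction, 4 per list with the strongest smallest rise by both drugs, the 10 largest over all genes in each direction, up to 10 belonging to each drug, and a fixed set of PPARα and lipid markers. Other members of the lists were named after their values were seen. The comparison and the lists were chosen with earlier results of these data known. Alternatives were DESeq2 1.42.0, RLE scaling, no count filter, single probes, a fit of only the drug and vehicle wells, a joint fit of both batches, an own-plate vehicle, a fold threshold, leaving out each well, and the ST assay. The scripts were tested on simulated data. Counts limit precision through depth, and for genes with at most 3 reads in every vehicle well a ratio with its counting interval, or a floor of 3 counts per well where vehicle had 0 reads, stands in for the fitted fold. Promoter sequences came from RefSeq (GRCr8), and no coordinates of the probes were used. Some genes tested are counted but not reported by name here.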

Additional observations from a re-analysis of the deposited data

Results flagged for a closer look

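Among 92 sets of 6 vehicle wells of batch 2 that were checked, 4 had a single well far from the others by Dixon's criterion, and chance alone marks about 1 in 20 groups. The highest well of Acot1 stood at 0.173 CPM and that of Krt23 at 0.173 CPM, while the other 5 wells held 0 reads of either gene. The highest well of Fabp3 was at 1.42 CPM, the others lying between 0.145 and 0.550. The lowest well of Cmya5 was at 2.27 CPM (others 3.11 to 3.54).

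The effect of a drug against vehicle differed between the batches, by the interaction test of edgeR, in 12 of 164 lipid genes for valproic acid (43 of all genes, 0.422%) and in 16 for WY14643 (165 of all, 1.62%). Values are given for 11 of the 12 and 15 of the 16. For valproic acid, the L2FC of batch 2 minus that of batch 1 was 1.89 for Cyp51, 1.84 for Msmo1, 1.74 for Mvd, 1.56 for Lss, 1.48 for Idi1, 1.21 for Fdps, 1.15 for Fdft1, 0.93 for Fasn, 0.81 for Insig1, 0.58 for Lpin2 and 0.53 for Acly. For WY14643 it was 1.65 for Idi1, 1.61 for Msmo1, 1.61 for Mvd, 1.59 for Hmgcs1, 1.54 for Lss, 1.29 for Fasn, 1.29 for Hsd17b7, 1.26 for Cyp51, 1.24 for Sqle, 1.15 for Fdft1, 1.15 for Fdps, 1.13 for Stard4, 0.55 for Acly and 0.45 for Mttp. Me1 went the other way, with -0.68 for WY14643. Batch, rat, library preparation and plate cannot be told apart in these differences.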

How the results depend on the processing

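No paired analysis was possible because wells of the 2 drugs share only a running number and a plate column, on different plates. Nothing else ties well 1 of a drug to well 1 of the other, and the plate column was not tested as a block. Requiring also an L2FC of at least 1 in size, besides the adjusted p, left 219 genes higher with valproic acid and 296 higher with WY14643 in both batches, 244 raised by valproic acid and 598 by WY14643, 38 lipid genes raised by both and higher with WY14643 and 0 belonging to valproic acid. By batch it left 472 and 415 genes higher with valproic acid and with WY14643 in batch 1, with 347 and 776 raised by either, and 489, 620, 414 and 971 in batch 2. In 1 joint fit of both batches, which pools their wells, the direct contrast called 2191 genes higher with valproic acid and 2376 with WY14643, valproic acid raised 1536 and WY14643 2851, 1 lipid gene (Nr1h4) was raised by both and higher with valproic acid, 20 belonged to WY14643 and 2 (Cyp4f4 and Ppard) to valproic acid. Over genes tested in both assays, ST put 3 lipid genes with WY14643 where WT put 5. With the vehicle of its own plate in batch 2, 1 lipid gene was raised by both and higher with valproic acid, against 0. In each case the cause was not tested.

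Leaving out 1 well at a time, the genes called in both batches ranged from 606 to 908 for higher with valproic acid, from 807 to 1176 for higher with WY14643, from 527 to 672 for raised by valproic acid and from 1320 to 1591 for raised by WY14643. The lowest count of higher with WY14643 in batch 1, 1052 of a range up to 1779, was found without replicate 2 of WY14643, beside 1671 with all wells. Lipid genes raised by both ranged from 70 to 75, those also higher with WY14643 from 61 to 67, those belonging to WY14643 from 10 to 15 and to valproic acid from 0 to 1. DESeq2 gave 77, 68 and 11 for the first 3 of these, RLE scaling 75, 66 and 11, no count filter 79, 66 and 12, single probes 75, 66 and 9, and only the drug and vehicle wells 76, 67 and 11. Of 1944 alternative values of the 94 named genes, 1882 kept direction and call, 61 lost the call, 1 gained it and 0 changed sign. The calls were lost under the fold threshold (21), the own-plate vehicle (12), a well left out (24 of 1128), single probes (2, Apoa2 and Elovl1) and ST (2, Apoa2 and Scarb1). Depth limits the genes near the floor, Acot1, Pdk4, Fabp3 and Krt23 among them.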

Other observations

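Beyond the lipid lists, the 10 genes with the largest mean direct L2FC toward valproic acid were Hal, Amdhd1, Ass1, Abat, Aqp9, Acnat1, Cmya5, Car5a, Armcx2 and St8sia1. Hal, which starts histidine breakdown, had 2.76 and 2.48 in batches 1 and 2, Amdhd1, of the same pathway, 2.30 and 2.52, Ass1, of the urea cycle, 2.45 and 2.57, and Abat, GABA transaminase, 2.38 and 2.66. These 4 were lowered by WY14643 against vehicle in both batches, with an L2FC of -3.36 and -2.54 for Hal and of -2.70 and -3.36 for Ass1, while valproic acid raised none of them in both. Aqp9, a glycerol channel (2.54 and 2.32), Acnat1 (2.14 and 2.46) and Cmya5 (2.97 and 1.79) were also lowered by WY14643. Car5a, the mitochondrial carbonic anhydrase, stood at 15.7, 14.8 and 10.7 CPM in the vehicle wells of batch 1, 33.3, 34.8 and 35.6 with valproic acid and 4.01, 5.64 and 6.01 with WY14643, and in batch 2 13.2 to 21.0 (median 18.3) with vehicle, 24.3, 30.8 and 30.3 with valproic acid and 2.65, 2.78 and 3.68 with WY14643. Its wells did not overlap between the groups, and it belonged to valproic acid, with a direct L2FC of 2.70 ± 0.22 in batch 1 and 3.22 ± 0.24 in batch 2, as did Armcx2 (2.65 and 2.71) and St8sia1 (2.001 and 2.57).

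Toward WY14643, 7 of the 10 genes were of the lipid lists or the RGD1565355 probe, and the others were Krt23, Chrna2 and LOC102549542 (-3.56 and -4.41). Chrna2, a nicotinic receptor subunit, had 0 reads in the vehicle wells of batch 1, and against a floor of 3 counts per well it was at least 5.85-fold higher with valproic acid and at least 114-fold higher with WY14643. In batch 2, with 2 vehicle reads, the ratio of pooled read rates was 89.2 (exact 95% counting interval 23.98 to 748) and 1523 (421 to 12588), and the direct L2FC was -4.32 and -4.09. Krt23, a keratin, had 1 vehicle read per batch, and the ratio with WY14643 was 525.58 and 905, the intervals starting at 93.7 and 162. With valproic acid the ratio in batch 1 was 16.9 from 17 reads (exact 95% counting interval 2.65 to 706), while the wells of batch 2 held 0, 1 and 0 reads. The calls of Krt23 and Chrna2 between the drugs were lost in batch 2 with vehicle of the own plate.

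Of 9 genes tested from a list set up for the receptors CAR and PXR, 4 were raised by both drugs, beside 5.20% of all genes. In both batches 3 were higher with valproic acid (8.29% of all genes) and 1 with WY14643 (10.8%). Whether these genes answered to CAR or PXR was not tested. Cyp2b3 and Cyp2c11 were higher with valproic acid (1.28 and 1.23, and 1.04 and 1.07) and Cyp2b2 with WY14643 (-1.26 and -1.87), while Cyp2b1 (0.47 and -1.55) and Aldh1a1 (-0.68 and -1.37) were not called in both batches. Of the 3 higher with valproic acid, Cyp2b3 alone was raised by it in both batches (2.09 and 1.96). Cyp2c11 had -0.08 and 0.85 against vehicle with valproic acid and -1.12 and -0.22 with WY14643. Abcc2, an efflux pump, was lowered by valproic acid (-1.36 and -1.61) and further by WY14643 (-1.98 and -2.40), with a direct L2FC of 0.62 and 0.80. Over all genes, those raised by both drugs and higher with valproic acid were AABR07028488.1, Bhmt2, Cyp2b3 and Prox1. Of 14 stress genes tested, 0 were raised by both drugs, where 5.20% of all genes were, so the count is no result about this list. Ddit3 (1.19 and 0.94 with WY14643, 0.32 and 0.14 with valproic acid) and Asns (1.03 and 1.15 and -0.06 and -0.34) belonged to WY14643, 2 of the 14 beside 4.71% of all genes. Other members did not follow them. With WY14643, Trib3 was called in neither batch (0.13 and 0.19), and Chac1 was lowered in batch 2 alone (-0.30 and -0.77). Nqo1 was lowered by WY14643 in both batches (-0.64 and -1.14). Gclc was lowered by both drugs in both (-0.64 and -1.13 with valproic acid, -0.54 and -0.91 with WY14643). Hmox1 was lowered by valproic acid (-0.63 and -0.81) and differed by -0.92 and -1.55 between the drugs, and Atf3 was lowered by WY14643 (-1.73 and -1.61), differing by 1.26 and 1.15.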
